A study of Mus musculus with 8 samples.

Results

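DNA topoisomerases and the 2 enzymes that remove them from DNA when they become trapped there were followed across RNA from mouse embryonic stem cells. The 8 genes were Top1, Top1mt, Top2a, Top2b, Top3a, Top3b, Tdp1 and Tdp2. They were taken as every probe set of the array (a group of short probes read as 1 value) that the platform annotation assigns to a single one of these symbols. This gave 16 of the 45101 probe sets, and 8 of the 18194 named genes. All 8 genes passed the filter on low signal through their brightest probe set, and 13 of the 16 probe sets passed it.

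Each of the 8 arrays held RNA of a knockdown line and a mock line, combined at 1:4, from stem cells of strain 129X1 x 129S1. The knockdown line carried a short hairpin against Top1 (shTop1) or against p53 (shp53). In the cocultures (labelled Co-culture) both lines grew in 1 dish for 4 days. In the mixes (labelled Control) each line grew by itself for 4 days and the RNA was then pooled in the same proportion. Mix and coculture of each knockdown gave 4 groups with 2 arrays each. The design set coculture against mix to separate what living together does from what each knockdown does by itself. Knockdown RNA made up 20% of each mix, so the mixes are mostly mock RNA. The labels do not give the share of knockdown cells in a coculture after 4 days. The labels call the replicates biological but do not say from which cultures they came, so each p-value covers the spread among these samples, which may be technical. The labels also do not say how many hairpins or clones each knockdown line stands for. In bulk RNA, fewer cells with a transcript and less of it per cell cannot be told apart.

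Topoisomerases relieve the twisting of DNA that transcription and replication produce. Type I enzymes (Top1 in the nucleus, Top1mt in mitochondria, and Top3a and Top3b) cut 1 strand, and type II enzymes (Top2a and Top2b) cut both strands and pass another duplex through the gap. During the cut the enzyme is held to the DNA end by a tyrosine. When this intermediate persists, Tdp1 frees the end from Top1 and Tdp2 frees it from Top2. Top2a is made mainly in dividing cells, in particular in G2 and mitosis, while Top2b is also made in cells that no longer divide.

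The arrays had mean deposited signals from 812 to 896. All 10 stem cell markers looked up, among them Pou5f1 and Nanog, lay between the 93.1 and 99.9 percentile of mean signal. Of the fibroblast markers, 4 of 9 were above the filter, with mean signals of 24.6 for Col1a1, 78.1 for Col1a2, 191 for Thy1 and 1290 for Pdgfra, which the primitive endoderm list also holds. The others, Col3a1, Postn, Lum, Dcn and S100a4, lay below it. The summed signal of the fibroblast list was 1474 to 1653 in the mixes and 1578 to 1984 in the cocultures. Col1a1, Col1a2, Thy1 and Pdgfra had log2 differences of 0.14, 0.39, 0.35 and 0.11 (limma adjusted p = 0.875, 0.445, 0.345 and 0.595). Below the filter, Col3a1, Postn, Lum and Dcn had lower means in coculture and S100a4 a higher one. The primitive endoderm list, with 9 of 10 genes above the filter, summed to 11098 to 11300 in the mixes and 11350 to 12660 in the cocultures. These ranges did not overlap, by a narrow margin. None of the 9 genes was called by itself (limma adjusted p from 0.467 for Foxa2 to 0.971 for Gata4). The neural (4233 to 4889 and 4090 to 4591), mesoderm (497 to 598 and 478 to 629) and trophectoderm (1415 to 1988 and 1655 to 2032) sums overlapped. The part of these cell types in the results was not tested. One array, shTop1 coculture replicate 1, stood apart on the next-to-largest principal component (32.6, against -15.5 to 3.63 for the others). On the largest component (19.9% of the variance) the mixes lay from -21.1 to -5.14 and the cocultures from -2.94 to 26.1. The ends of that coculture range were shTop1 coculture replicate 1 (-2.94) and replicate 2 (26.1).

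Between coculture and mix, 0 of the 8 genes were called with limma at an adjusted p under 0.05, averaged over both knockdowns, as were 0% of the 14267 genes tested. At an unadjusted p under 0.05 there was 1, Top2a, against 11.7% of all genes tested, 7.09% in the higher direction. The log2 differences of the 8 genes ran from -0.16 to 0.17 with a median of 0.0017, against 0.022 over all genes, and 4 lay above 0 and 4 below. Between shTop1 and shp53 over both conditions, again 0 of 8 genes and 0% of all genes were called. None of the 8 had an unadjusted p under 0.05, against 4.7% of all genes. Within the other comparisons 0 of the 8 genes and 0% of all genes were called. At an unadjusted p under 0.05 there was 1 of the 8 between coculture and mix with shTop1 (Top2a) and 0 with shp53, against 8.2% and 6.86% of all genes. There were 0 of 8 for the difference of the knockdowns' effects, between the mixes and between the cocultures, against 4.3%, 4.04% and 4.78% of all genes. These counts use the brightest probe set of each gene. When all 26118 probe sets were fitted, the bright Top2a set had an unadjusted limma p of 0.0673 with shTop1. In that fit the dimmer sets 1442454_at of Top2a (lower in coculture) and 1457573_at of Top1 (higher) had 0.0239 and 0.0419. Coculture and mix did not overlap for 3 of the 8 genes with shTop1 (Top2a, Top2b and Tdp1; 41.4% of all genes) and for 2 with shp53 (Top2a and Tdp1; 38%). Between the knockdowns 3 of the 8 did not overlap in the mixes (33.4% of all genes) and 3 in the cocultures (27.8%). Over both conditions the differences between the knockdowns ran from -0.22 to 0.20, with a median of 0.025 against -0.0036 over all genes.

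**Figure D1:**
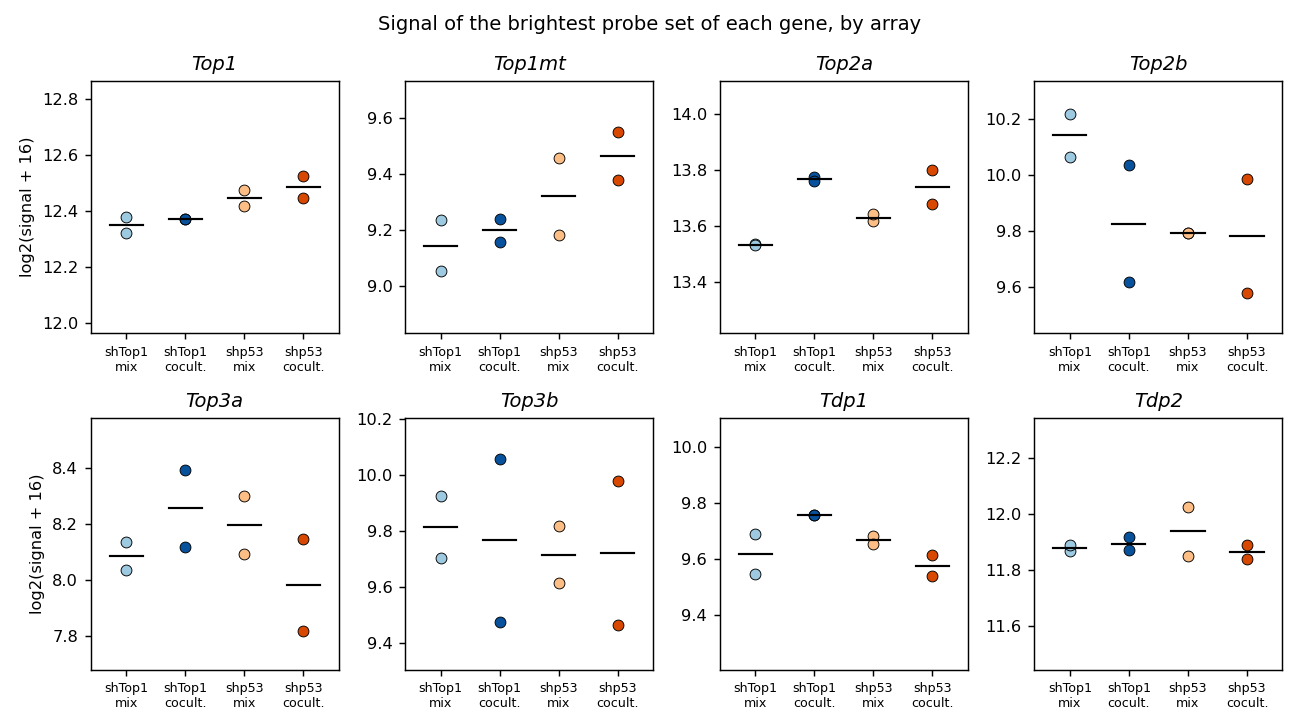
Signal of the brightest probe set of each of the 8 genes, as log2(signal + 16) on the vertical axis, in the 4 groups on the horizontal axis. Each point is 1 array, each line the mean of the 2 arrays of a group, and every panel spans the same height. Top2a is the gene whose cocultures all lie above its mixes, and Top1 the gene whose shTop1 arrays all lie below its shp53 arrays.

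Top1, the nuclear type I enzyme that 1 of the hairpins targets, was measured by its brightest probe set at signals of 5110 and 5316 in the shTop1 mix and 5281 and 5283 in the matching coculture. In the shp53 mix it had 5456 and 5682, and in the shp53 coculture 5572 and 5886. All 4 shTop1 arrays were lower than all 4 shp53 arrays, by narrow margins, in this probe set. The dimmer Top1 probe sets were higher with shTop1 (0.15 ± 0.19 for 1438495_at and 0.39 ± 0.28 for 1457573_at on the log2 scale, SE, limma adjusted p = 0.999 for both), and the average of the 3 gave 0.15. Without shp53 coculture replicate 2 the value of 1438495_at was -0.071. For the bright probe set over both conditions the means were 5247 ± 93.3 with shTop1 and 5649 ± 183 with shp53 (SD, n = 4 each), a ratio of 0.929. The log2 difference was -0.11 ± 0.07 (SE), with a 95% interval from -0.27 to 0.055. The two-sided exact permutation test gave p = 0.0286, the smallest that 4 arrays against 4 allow, while the limma adjusted p over all genes was 0.999. Groups that do not overlap in this comparison were found for 1 of the 8 genes and for 2.09% of all genes, 1.07% in the lower direction. On the deposited scaling without quantile normalization the groups also did not overlap (log2 difference -0.094, exact permutation p = 0.0286). The separation was lost when arrays were centred on their medians (log2 difference -0.029, exact permutation p = 0.600). Under that scaling the median of all genes was 0.052, so Top1 lay 0.081 below it, against 0.10 below it under quantile normalization.

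If the knockdown cells held no Top1 RNA and the other cells equal amounts, a 20% share would give a ratio of 0.8, or a log2 difference of -0.32. The measured difference was -0.095 ± 0.09 (SE) between the mixes, where that share is known, with an interval from -0.32 to 0.13. Between the cocultures it was -0.12 ± 0.09 (SE). Within a knockdown, Top1 differed little between coculture and mix, by 0.019 ± 0.09 with shTop1 and 0.040 ± 0.09 with shp53 on the log2 scale (SE, limma adjusted p = 0.966 and 0.952). From low to high the group means ran from the shTop1 mix over its coculture and the shp53 mix to the shp53 coculture. Neighbours in that order overlapped, except that both shp53 mix arrays lay above both shTop1 cocultures.

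Both of the other Top1 probe sets are much dimmer and did not follow the bright one. The probe set 1438495_at had signals of 270 and 283 in the shTop1 mix against 183 and 188 in its coculture. In the shp53 mix it had 223 and 219, and in the shp53 coculture 258 and 131. It was therefore lower in both shTop1 cocultures than in the shTop1 mixes (log2 difference -0.54 ± 0.28, SE, limma adjusted p = 0.681 over 26118 probe sets). The probe set 1457573_at had 29.9 and 6.43 in the shTop1 mix, 49.9 and 46.3 in the shTop1 coculture, 29.4 and 10.2 in the shp53 mix and 21.3 and 16.1 in the shp53 coculture. It stood higher in the shTop1 cocultures (log2 difference 1.00 ± 0.39, SE, limma adjusted p = 0.629), with several of its values below the filter at 22.1. Without shTop1 mix replicate 2 this value was 0.48, and without replicate 1 it was 1.51. Over the 8 arrays the bright probe set correlated with these at r = -0.55 and -0.48. The sources used here do not say where the probes lie relative to the target of the hairpin.

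Top1mt, the mitochondrial relative of Top1 that relaxes mitochondrial DNA, had signals of 587 and 516 in the shTop1 mix and 589 and 556 in the shTop1 coculture. The shp53 mix had 688 and 565 and the shp53 coculture 651 and 734. The shp53 arrays were mostly higher, but 1 shp53 mix array lay among the shTop1 arrays. Over both conditions the means were 562 ± 34.3 with shTop1 and 659 ± 71.6 with shp53 (SD, n = 4 each), a log2 difference of -0.22 ± 0.10 (SE). This was the lowest value among the 8 genes in that comparison and was not called (limma adjusted p = 0.999). Coculture and mix differed by 0.10 ± 0.10 on average (limma adjusted p = 0.710), and leaving out 1 array this ranged from 0.030 without shp53 mix replicate 2 to 0.17 without shp53 mix replicate 1. Over the 8 arrays Top1mt and Top1 had r = 0.607, the highest of the 28 pairs of these genes, while Top1 and Top2b had the lowest, -0.654. These values describe arrays that all hold RNA of mock cells and were normalized together.

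Top2a, the type II enzyme of dividing cells that untangles chromosomes before they separate, had signals of 11880 and 11835 in the shTop1 mix and 14024 and 13866 in the shTop1 coculture. The shp53 mix had 12561 and 12792 and the shp53 coculture 14265 and 13121. All 4 cocultures were higher than all 4 mixes. The means were 13819 ± 493 in coculture and 12267 ± 483 in the mixes (SD, n = 4 each), and the log2 difference was 0.17 ± 0.07 (SE), a ratio of 1.13. The two-sided exact permutation test, which exchanged arrays without regard to knockdown, gave p = 0.0286, the smallest that 4 arrays against 4 allow. With limma the unadjusted p was 0.0417 and the adjusted p 0.407. Top2a was the only one of the 8 genes whose cocultures and mixes did not overlap, against 9.1% of all genes tested, 5.75% in the higher direction. All cocultures were also above all mixes after median centring (0.26) and on the deposited scaling without quantile normalization (0.20), each with exact permutation p = 0.0286. Top2a lay 0.19 above the median of all genes under each of these scalings, against 0.15 under quantile normalization. That median was 0.068 after median centring and 0.022 under quantile normalization. Without shTop1 coculture replicate 1 the quantile normalized Top2a difference was 0.17.

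With shTop1 the Top2a difference was 0.23 ± 0.09 (SE, limma adjusted p = 0.606), and with shp53 0.11 ± 0.09 (limma adjusted p = 0.830). The coculture and mix arrays did not overlap in either. Leaving out shp53 coculture replicate 1 or 2 moved the shp53 value to 0.050 or 0.17. The difference between the knockdowns' effects was 0.12 ± 0.13 (limma adjusted p = 1.00), with an interval from -0.20 to 0.45. It was 0.063 without shp53 coculture replicate 2 and 0.18 without replicate 1. The groups ranked shTop1 mix, shp53 mix, shp53 coculture and shTop1 coculture from low to high. Between the last 2 the difference of 0.028 was within their spread.

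A dimmer Top2a probe set, 1442454_at, went the other way with shTop1. Its signals were 835 and 563 in the shTop1 mix and 380 and 477 in the shTop1 coculture, a log2 difference of -0.67 ± 0.22 (SE, limma adjusted p = 0.605), which was -0.39 without shTop1 mix replicate 1. With shp53 it had 558 and 581 in the mix and 631 and 514 in the coculture, and the difference was 0.00023. Over the 8 arrays it correlated with the bright probe set at r = -0.58. The other Top2a probe set, 1427724_at, was under the filter with signals from 1.26 to 2.59. The average over these 3 probe sets had a mean coculture difference of -0.042, opposite in sign to that of the bright one.

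**Figure D2:**
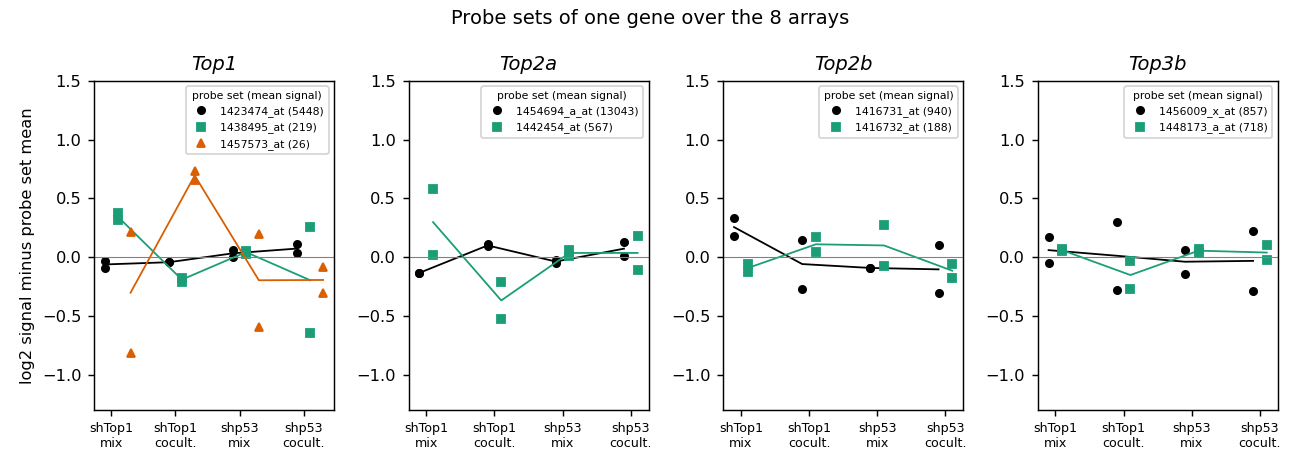
Probe sets above the filter of the genes that have more than one. The vertical axis is log2 signal minus the probe set's own mean, the horizontal axis the 4 groups, points are arrays and lines join the group means, with each probe set's mean signal in the legend. The bright and dim probe sets of Top1, Top2a and Top2b part in the shTop1 groups.

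The promoters of Top2a, of its paralog Top2b and of the targeted gene Top1 are shown to let their letters be compared, as the genes described at most length here. Each is the 250 bases before a RefSeq transcript start in GRCm38.p6, read 5′ to 3′ on the gene's strand. They lie at chr11:99024190-99024439 on the minus strand for Top2a, and on the plus strand at chr14:16364956-16365205 for Top2b and chr2:160645647-160645896 for Top1. Capitals mark every match, on either strand, to CCAAT (the NF-Y box), to TTTGAA and TTCGAA (forms of the cell cycle homology region of G2 and M phase promoters), to GGGCGG (the GC box) and to CACGTG (the E-box). Windows were found for 5 of the 8 genes.
Top2a: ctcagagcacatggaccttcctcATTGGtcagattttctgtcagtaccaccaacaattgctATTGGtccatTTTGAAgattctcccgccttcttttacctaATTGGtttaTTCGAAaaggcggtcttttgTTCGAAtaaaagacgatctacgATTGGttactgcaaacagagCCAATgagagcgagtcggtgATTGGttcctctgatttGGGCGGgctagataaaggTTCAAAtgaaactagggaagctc
Top2b: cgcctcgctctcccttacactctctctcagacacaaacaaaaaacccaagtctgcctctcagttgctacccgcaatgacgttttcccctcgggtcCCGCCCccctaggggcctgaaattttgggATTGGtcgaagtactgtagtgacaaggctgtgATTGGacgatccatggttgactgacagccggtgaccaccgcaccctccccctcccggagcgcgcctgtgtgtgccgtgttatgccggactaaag
Top1: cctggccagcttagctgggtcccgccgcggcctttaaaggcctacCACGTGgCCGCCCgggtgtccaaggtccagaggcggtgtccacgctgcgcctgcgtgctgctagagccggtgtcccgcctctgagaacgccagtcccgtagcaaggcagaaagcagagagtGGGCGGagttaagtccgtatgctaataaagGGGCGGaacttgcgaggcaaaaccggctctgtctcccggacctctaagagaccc

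The Top2a window held 6 matches to CCAAT, 2 to TTTGAA, 2 to TTCGAA and 1 to GGGCGG, none of which overlap. Among 32851 promoter windows of the same length, 33.8% held CCAAT at least once and 0.0578% held it 6 or more times. For TTTGAA the share with 2 or more matches was 1.81%, and for TTCGAA 0.0183%. The Top2b window held 2 CCAAT and 1 GGGCGG, and the Top1 window 0 CCAAT, 3 GGGCGG (32.7% of windows held at least 1) and 1 CACGTG (6.02%). Of the other genes, Tdp1 had 1 TTTGAA and 1 GGGCGG, and Top3b had 1 CCAAT. The G and C content was 43.6% for Top2a, 57.6% for Top2b and 63.6% for Top1. These matches describe letters in the windows and no binding was measured.

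Top2b, the type II enzyme that acts at transcribed genes, had signals of 1174 and 1055 in the shTop1 mix and 1033 and 770 in the shTop1 coculture. The shp53 mix had 871 and 871 and the shp53 coculture 997 and 748. The shTop1 mix was thus the highest group, and the others overlapped. The shTop1 coculture lay below its mix by -0.31 ± 0.19 (SE, limma adjusted p = 0.706), while with shp53 the value was -0.012 ± 0.19 (limma adjusted p = 0.993). Leaving out shTop1 coculture replicate 1 or 2 moved the shTop1 value to -0.52 or -0.11. The probe set 1416732_at had 170 and 179 in the shTop1 mix and 213 and 193 in its coculture, the opposite direction (0.20 ± 0.15, SE, limma adjusted p = 0.755). Its shp53 values overlapped, with 177 and 229 in the mix and 164 and 179 in the coculture. A further probe set was below the filter.

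Top3a, which with the helicase Blm separates joined DNA molecules, had signals of 265 and 246 in the shTop1 mix, 320 and 262 in the shTop1 coculture, 257 and 299 in the shp53 mix and 209 and 267 in the shp53 coculture. Within each knockdown coculture and mix overlapped. The log2 difference was 0.17 ± 0.16 with shTop1 and -0.21 ± 0.16 with shp53 (SE, limma adjusted p = 0.802 and 0.807). Without shTop1 coculture replicate 1 the shTop1 value was 0.034, and without replicate 2 it was 0.31. The shp53 value was -0.051 without shp53 coculture replicate 1, -0.38 without replicate 2 and -0.11 without shp53 mix replicate 2. The difference of these effects was the largest among the 8 genes, 0.39 ± 0.23, but was not called (limma adjusted p = 1.00). It was 0.25 without shTop1 coculture replicate 1 and 0.22 without shp53 coculture replicate 1.

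Top3b, which with its partner Tdrd3 acts on RNA as well as DNA, was the least precise of the 8. Its brightest probe set gave 956 and 817 in the shTop1 mix and 1048 and 696 in the shTop1 coculture. The shp53 mix had 885 and 767 and the shp53 coculture 691 and 993. The spread within each coculture was wider than any difference between groups, with a mean coculture difference of -0.020 ± 0.18 (SE, limma adjusted p = 0.974). The probe set 1448173_a_at, of similar brightness, had 750 and 743 in the shTop1 mix and 700 and 590 in its coculture, against 753 and 736 in the shp53 mix and 703 and 771 in its coculture. Its mean coculture difference was -0.11 ± 0.09 (SE, limma adjusted p = 0.663), or -0.053 without shTop1 coculture replicate 2 and -0.17 without replicate 1.

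Tdp1, which frees DNA ends from trapped Top1, had signals of 730 and 808 in the shTop1 mix and 849 and 849 in the shTop1 coculture. The shp53 mix had 805 and 790, and the shp53 coculture 727 and 766. Both shTop1 cocultures lay above the shTop1 mixes and both shp53 cocultures below the shp53 mixes. Of all genes, 3.55% did not overlap in either knockdown and lay in opposite directions. The log2 difference was 0.14 ± 0.10 with shTop1 and -0.094 ± 0.10 with shp53 (SE, limma adjusted p = 0.737 and 0.865). The shTop1 value was 0.070 without shTop1 mix replicate 1 and 0.21 without replicate 2, and the shp53 value was -0.056 without shp53 coculture replicate 1. Their difference of 0.23 ± 0.14 had an interval from -0.11 to 0.58 (limma adjusted p = 1.00). Averaged over both knockdowns Tdp1 differed by 0.024 ± 0.07.

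Tdp2, which frees ends from trapped Top2, had 3725 and 3774 in the shTop1 mix, 3855 and 3731 in the shTop1 coculture, 4158 and 3677 in the shp53 mix and 3646 and 3784 in the shp53 coculture. Apart from shp53 mix replicate 1, the arrays lay within a narrow range. The mean coculture difference was -0.029 ± 0.07 with an interval from -0.21 to 0.15 (limma adjusted p = 0.899), and shTop1 differed from shp53 by -0.015 ± 0.07 (limma adjusted p = 0.999).

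**Figure D3:**
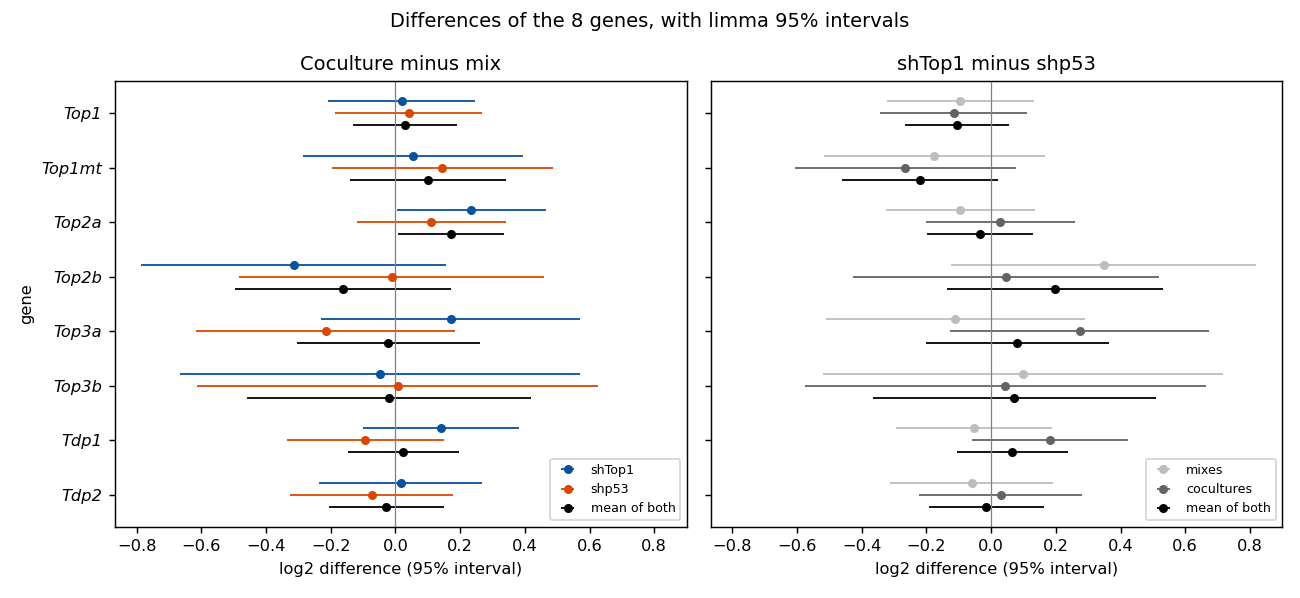
Log2 differences (horizontal axis) of the 8 genes (vertical axis) with limma 95% intervals, coculture minus mix on the left and shTop1 minus shp53 on the right. In this fit of 1 probe set per gene, only the shTop1 and mean coculture intervals of Top2a lie wholly above 0. Both include 0 in the fit over all probe sets. The widest intervals belong to Top3b.

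Genes that work with these enzymes were read from 5 lists. In the repair of trapped topoisomerases and of the breaks they leave, 0 of 25 tested genes were called in the mean coculture comparison, with 13 above 0 and a median of 0.0043 against 0.022 for all genes. At an unadjusted p under 0.05, 2 were higher and 2 lower. The smallest p belonged to Lig4, the ligase of non-homologous end joining (321 ± 35.5 in coculture and 402 ± 18.2 in the mixes, SD, n = 4 each, log2 difference -0.32, limma adjusted p = 0.357). Next was the endonuclease subunit Mus81 (227 ± 16.8 and 183 ± 24.1, log2 difference 0.30, limma adjusted p = 0.381). Between shTop1 and shp53, 0 of 25 were called. There the end-joining factor Nhej1 (125 ± 8.69 and 84.1 ± 31.3, 0.56) and the SUMO ligase gene Zfp451 (1483 ± 127 and 1669 ± 87.0, -0.17) came first, with limma adjusted p of 0.962 and 0.999.

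The partners of Top3a and Top3b gave 0 of 13 called in the mean coculture comparison, with a median of -0.011 and 6 above 0. The dissolvasome subunit Rmi2 (-0.48) and the helicase gene Recql (-0.27) had the smallest p there (limma adjusted p = 0.455 and 0.482). Between shTop1 and shp53, Recql (0.35) and the helicase gene Wrn (-0.28) came first, both with limma adjusted p = 0.999. Chromatin and chromosome partners of Top1 and Top2 gave 0 of 17 called, with a median of -0.00062. Leading by p were Nolc1 (-0.16), a nucleolar protein, and Topors (-0.31), a ligase named for binding Top1 (limma adjusted p = 0.458 and 0.504), and between the knockdowns the cohesin subunit Rad21 (0.29) and the condensin subunit Ncapg (-0.16). Mitochondrial DNA maintenance, the setting of Top1mt, gave 0 of 13 with a median of -0.025. Dna2 (-0.12), a nuclease and helicase, and Tfam (-0.12), which packages mitochondrial DNA, had the smallest p (limma adjusted p = 0.502 and 0.537). Between the knockdowns these were Polg2 (-0.13) and Endog (0.15).

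Genes of G2 and M phase, in which Top2a is at its highest, gave 0 of 18 called, and also 0 at an unadjusted p under 0.05. Of them 16 lay above 0 in coculture, against 55.3% of all genes, with a median of 0.056 against 0.022. By knockdown the list's median was 0.056 with shTop1 (14 of 18 above 0) and 0.091 with shp53 (13 of 18). Over all genes it was 0.030 and 0.014, and the bright Top2a probe set differed by 0.23 and 0.11. The checkpoint kinase gene Bub1 had 8151 ± 388 in coculture and 7292 ± 346 in the mixes (SD, n = 4 each, log2 difference 0.16, limma adjusted p = 0.448). Ube2c, which serves the exit from mitosis, had 11335 ± 914 and 9880 ± 674 (0.20, limma adjusted p = 0.451). Leaving out 1 array, 12 to 16 of the 18 lay above 0 and the median ranged from 0.028 without shTop1 coculture replicate 2 to 0.085 without shTop1 coculture replicate 1. Between shTop1 and shp53 their median was -0.030, with Mki67 (-0.098) and Bub1 (-0.082) of smallest p.

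**Figure D4:**
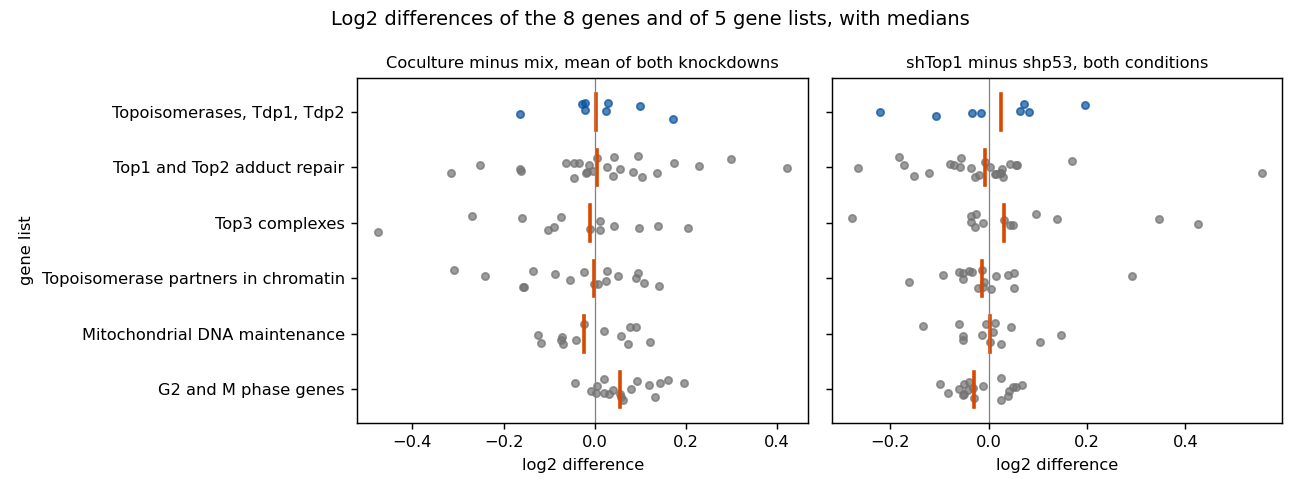
Log2 differences (horizontal axis) of the tested genes of each list (vertical axis), coculture minus mix on the left and shTop1 minus shp53 on the right. Each point is 1 gene and each bar the list's median, which in the left panel is 0.056 for G2 and M phase genes.

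Across the 8 arrays, the tested genes most like Top1 by Pearson correlation were B4galnt1 (r = 0.970), Ccdc106 (0.966) and Ildr2 (0.949), with 21 of 14266 genes over 0.9. All 3 were dim, with mean signals of 69.0, 147 and 39.8. Most like Top2a were Sdcbp2 (r = 0.985), Palld (0.977) and Rassf1 (0.976), with 92 genes over 0.9. These values describe 8 arrays that all hold RNA of mock cells, and many genes are compared.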

How the data were processed

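Per the labels, total RNA was the starting material, the label was biotin, and 8 Affymetrix arrays were used. The deposited values are linear intensities, 1 per probe set and array, which the authors had brought to the same trimmed mean on each array (about 500.003, as read from the values). The sources used here do not name the summarisation tool. Between 21.1% and 25.6% of an array's values lay under the pseudocount, and precision is limited by having 2 arrays a group.

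Here the intensities were quantile normalized, and log2(value + 16) was analysed, which understates changes of low genes. Signals in the text are on the normalized linear scale. Of the probe sets, 34958 had 1 symbol, 932 several and 9211 were not listed. The probe set of highest mean stood for a gene, kept at or over the 30th percentile (signal 22.1). Group means of all 8 arrays were fitted with limma 3.58.1 (R 4.3.3, eBayes), with 4 residual degrees of freedom and two-sided p-values, Benjamini-Hochberg adjusted over all 14267 genes at 0.05. Of 50 genes each, changed in the mean coculture comparison of data simulated for all 14267 genes, the fit recovered 0% at a log2 change of 0.25, 30% at 0.5, 66% at 1 and 88% at 2, with 8 false calls.

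The 8 genes and the lists were chosen with earlier results of these data known. Named were all member probe sets, per list the 2 genes of smallest p in the mean coculture and the shTop1 against shp53 comparisons, and the 3 genes most like Top1 and Top2a. Replicate numbers did not pair the arrays (correlation of deviations -0.0067 to 0.051 over 6 pairs of groups). Sequences are from RefSeq. Alternatives were other scalings, filters, pseudocounts, probe set rules and variances, the groups compared only, a replicate block and leaving out each array. Leaving out each array for single probe sets was added after seeing the data, as values with no test.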

Additional observations from a re-analysis of the deposited data

Results flagged for a closer look

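Tdp1 was singled out because all its shTop1 cocultures lay above their mixes while all its shp53 cocultures lay below theirs, a pattern found for 3.55% of all genes. The difference of the coculture effects was 0.23 on the log2 scale. In the limma fit it had an adjusted p of 1.00, and leaving out 1 array it ranged from 0.16 to 0.31.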

How the results depend on the processing

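In all 7 comparisons 0 genes were called under every alternative but trended and robust variances, which called 31 in the mean coculture comparison, 3 with shTop1 and 1 with shp53, none of them among the 8 genes. With the replicate block 0 genes were called in each comparison, Top2a had a mean coculture difference of 0.17 (limma adjusted p = 0.434), and no call changed.

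Averaging the probe sets of each gene turned the sign of many values of these genes, and those given here are not all of them. Top2a turned to -0.042 (mean coculture), -0.14 (shTop1) and -0.19 (difference of the knockdowns), and Top1 to 0.15 (shTop1 against shp53), 0.034 (mixes), 0.26 (cocultures) and -0.065 (shp53 coculture). Top2b turned to 0.36 (difference of the knockdowns) and Top3b to 0.036 (shTop1), -0.24 (shp53) and -0.0067 (shTop1 against shp53). Dim probe sets weigh as much as bright ones there. Median centring turned Top3a (0.0092), Top3b (0.031) and Tdp2 (0.032) in the mean comparison, Top2b with shp53 (0.052), and Top2a (0.050) and Tdp2 (0.064) between the knockdowns. It also moved the median of all genes, from 0.022 to 0.068 in the mean comparison and from -0.0036 to 0.052 between the knockdowns. The cause of these turns was not tested.

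Leaving out 1 array, values near 0 crossed it. In the mean coculture comparison the ranges were -0.10 to 0.060 for Top3a, -0.17 to 0.12 for Top3b, -0.012 to 0.059 for Tdp1 and -0.073 to 0.015 for Tdp2. With shTop1 they were -0.0094 to 0.048 for Top1, -0.037 to 0.15 for Top1mt, -0.34 to 0.24 for Top3b and -0.0072 to 0.040 for Tdp2. With shp53 they were -0.22 to 0.19 for Top2b, -0.25 to 0.26 for Top3b and -0.16 to 0.015 for Tdp2. Between the knockdowns they were -0.00047 to 0.16 for Top3a, -0.074 to 0.22 for Top3b and -0.059 to 0.029 for Tdp2. Top2a ranged from 0.14 to 0.20 in the mean comparison and Top1 from -0.13 to -0.086 between the knockdowns, with no change of sign. Where this left 1 array in a group, that array was assumed to vary like the other groups.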
